A study of Homo sapiens with 4 samples.

Results

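The heavy-strand RNA between ND5 and CYB, which lies opposite the light-strand genes ND6 and TRNE, was examined in isolated mitochondria of a line derived from human embryonic kidney, which the growth protocol names HEK-293T and the sample labels HEK 293. Its members are the positions 14148 to 14745 of the heavy-strand file, 598 of the 16500 positions that the file lists. Positions 14148 to 14672 lie opposite ND6 (525 nt), positions 14673 to 14741 lie opposite TRNE, the gene of the glutamate tRNA (69 nt), and the last 4 are a spacer before CYB. The numbering is that of the deposited files, which here runs 1 below the GRCh38 mitochondrial sequence. No gene of the heavy strand is annotated in this stretch, so it is neither exon nor UTR of a heavy-strand gene in the gene table. Each position was taken by its base in the heavy-strand file. A mismatch at A or C was read as the heavy-strand RNA, and a mismatch at G or T, which pairs with C or A of the light strand, as ND6 itself. The strand of each file was taken from its name and base column. How reads were split by strand is not given in the sources used here, so the assignment of a mismatch to a strand rests on the base alone.

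There were 2 libraries of wild-type mitochondria and 2 of mitochondria in which LRPPRC was knocked out, each labelled as a biological replicate. All 4 were treated with 1% dimethyl sulfate (DMS) for 5 min at 37 °C, after isolation of the organelle and before RNA extraction. The labels do not name the knockout clone, and whether the replicates of a group came from separate clones is not given there, so the spread between them covers only these libraries. Each value is a fraction of mismatches at 1 position, printed here as a percentage, and gives no amount of either RNA. The depth is unknown, because the files give no read counts, and no library without DMS was analysed here. Across the whole heavy-strand file the library median of the A and C fractions was lower in the knockout, by 0.63 on the log2 scale. The library median at G and T was higher by 0.06. These are differences of medians, and the median of the changes at single A and C positions was -0.50.

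Human mitochondrial DNA is transcribed from both strands into long RNAs that are cut mainly at the tRNAs. ND6, a subunit of respiratory complex I, is the only mRNA made from the light strand. The heavy-strand RNA runs through the same stretch after ND5, another complex I subunit, and before CYB, the cytochrome b subunit of complex III, and no heavy-strand tRNA separates those genes. LRPPRC, with its partner SLIRP, binds the mRNAs of the heavy strand and keeps them stable, whereas ND6 is known to depend on it much less. DMS methylates adenine and cytosine where the base is not paired, and reverse transcription then places a mismatch at the methylated base.

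The sequences around the positions that changed most are shown first, each as 25 nt from 5′ to 3′ as read from the base column, with the named position in capitals. The first 3 are heavy-strand RNA around the A and C positions with the largest fall, at MT:14328-14352, MT:14336-14360 and MT:14352-14376.
C14340: cacaaccaccacCccatcatactct
A14348: ccaccccatcatActctttcaccca
C14364: tttcacccacagCaccaatcctacc
The next 3 are ND6-strand RNA, the reverse complement of MT:14236-14260, MT:14397-14421 and MT:14410-14434, around the heavy-strand G positions with the largest rise. The capital is the C of ND6 that pairs with that G.
G14248, ND6 strand: atcctattggtgCgggggctttgta
G14409, ND6 strand: aggggttgaggtCttggtgagtgtt
G14422, ND6 strand: aggcatgggggtCaggggttgaggt
The last 3 are heavy-strand RNA opposite TRNE, at MT:14662-14686, MT:14682-14706 and MT:14703-14727, where the A and C positions with the largest rise after centring were found.
A14674: gcatacatcattAttctcgcacgga
C14694: acggactacaacCacgaccaatgat
C14715: tgatatgaaaaaCcatcgttgtatt
The heavy-strand sequence was rich in A and C. It held 226 A, 207 C, 46 G and 119 T, so that 72.4% of its positions were A or C, against 64.7% in ND5 and 62.8% in CYB.

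The heavy-strand RNA opposite ND6 and TRNE carried fewer mismatches at A and C in the LRPPRC knockout. Over its 433 A and C positions the mean fraction was 3.51% and 3.50% in the wild-type libraries and 1.62% and 1.59% in the knockout libraries. The groups did not overlap, and the means were 3.51% ± 0.00786 (SD, n = 2) and 1.60% ± 0.0186 (SD, n = 2), a 2.19-fold difference. With 2 libraries against 2, the exact permutation test (two-sided) cannot go below p = 0.333, which is the value it gave. At C alone the fraction was 4.35% and 4.31% in wild type against 1.70% and 1.68% in the knockout, a 2.56-fold difference. At A alone it was 2.74% and 2.76% against 1.54% and 1.51%, a 1.81-fold difference.

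Single positions showed the same direction nearly throughout. Both knockout values lay below both wild-type values at 405 of the 433 A and C positions (93.5%), against 83.7% of the A and C positions of the whole file. The share was similar in the neighbouring mRNAs, at 93.9% in ND5 and 91.1% in CYB. In the stretch both knockout values lay above at 14 positions (7.63% of the file), and the groups overlapped at 14. The position means ranged from 0.0845% to 9.96% in wild type, with a median of 3.50%, and from 0.187% to 6.12% in the knockout, with a median of 1.44%. At the 5′ border the last base of ND5, A14147, had 3.14% and 3.03% in wild type against 1.90% and 1.93% in the knockout. The next base, C14148, which is the first of the stretch, had 9.84% and 10.1% against 3.35% and 3.37%. At the 3′ border the last base of the spacer, A14745, had 1.67% and 1.58% against 1.84% and 1.85%. The next base, A14746, which opens CYB, had 0.749% and 0.819% in wild type against 2.39% and 2.54% in the knockout. The border positions next to ND5 were thus lower in the knockout, and those next to CYB higher.

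To compare the stretch with the rest of the heavy-strand file, log2(fraction + 0.001) was fitted with limma over all tested positions, those with a mean fraction of 0.002 to 0.3. That filter kept 431 of the 433 A and C positions, leaving out 14503 and 14504, and 159 of the 165 G and T positions. Each library was centred on its median, so that a change is relative to the median of the file. By this measure 345 of the 431 A and C positions passed an adjusted p of 0.05 in limma, against 71.5% of all 9910 tested. Of these, 246 fell, where 26.6% of all tested positions did, and 99 rose, where 44.9% did. The median log2 change was -0.32 in the stretch and 0.13 over all tested positions. Without centring, 387 passed (83% of all tested), of which 383 fell (78.3%) and 4 rose (4.73%), with a median of -0.95 against -0.50.

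As a whole the stretch was among the features of the heavy strand with the largest fall. The mean of its A and C positions changed by -0.37 on the log2 scale after centring (SE 0.0114, limma adjusted p = 0.000608), the third lowest of 42 features, of which 78.6% passed, 9.52% falling and 69% rising. The part opposite ND6 alone changed by -0.48, behind only the unannotated end of the file after the tRNA genes (-0.51) and ahead of ND4 (-0.27). That part and the one opposite TRNE were counted as features of their own. Without centring the change opposite ND6 was -1.11, and 81% of the features fell. ND5 changed by 0.0054 after centring (limma adjusted p = 0.629) and CYB by 0.16 (limma adjusted p = 0.00124).

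The fall exceeded that of both neighbouring mRNAs when the difference itself was tested. In ND5 the mean A and C fraction was 3.66% and 3.62% in wild type against 2.26% and 2.25% in the knockout, a 1.61-fold difference. In CYB it was 3.57% and 3.54% against 2.47% and 2.47%, a 1.44-fold difference. Set against the 2.19-fold difference of the stretch, the change differed by -0.38 from that of ND5 (SE 0.0133, limma adjusted p = 0.000168) and by -0.54 from that of CYB (SE 0.0134, limma adjusted p = 0.000147). The same test passed for 100% of the 41 features, with the stretch lower than 95.1% of them. Both differences turned when the fractions of the stretch, ND5 and CYB were each divided by 1 minus their slope on the light-strand file. That slope is described with the G and T positions, and the other features in the fit were left undivided. The differences then stood at 0.12 against ND5 (limma adjusted p = 0.136) and 0.37 against CYB (limma adjusted p = 0.00567).

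The change was not even along the stretch. In windows of 50 nt, the A and C fraction was lowered most between 14198 and 14447 and least at the end next to CYB. The window from 14348 had 4.41% and 4.35% in wild type against 1.20% and 1.19% in the knockout, a 3.66-fold difference. Its change after centring was -1.08 (SE 0.0137, limma adjusted p = 2.27e-07), the second lowest of 329 windows of the heavy-strand file. The windows from 14298 (-1.01), 14248 (-0.93), 14398 (-0.79) and 14198 (-0.76) were also among the 15 lowest. Toward both ends the difference narrowed. The first window, from 14148, had 3.98% and 3.89% against 1.94% and 1.89%, a 2.06-fold difference that was close to the 2.08-fold of the last 50 nt of ND5. The window from 14548 had 3.63% and 3.67% against 2.47% and 2.43%, and its change after centring was 0.12. The window from 14698, which takes in most of the stretch opposite TRNE and 2 nt of CYB, had 0.973% and 0.992% against 0.905% and 0.912%.

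All 12 windows passed the test after centring, where 85.7% of the file's windows did. Of these, 8 fell (25.2% of the file's windows) and 4 rose (60.5%). Without centring 11 passed (93% of the file's windows), all of them lower (90.6%), and 0 rose (2.43%). The 4 windows that rose after centring, from 14548 onward, therefore had lower fractions in the knockout as deposited. Their falls were smaller than the 0.63 by which the library medians differed. The median change of all 329 windows without centring was -0.51, and the windows from 14548 (-0.513) and 14598 (-0.587) fell slightly more than that.

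**Figure D1:**
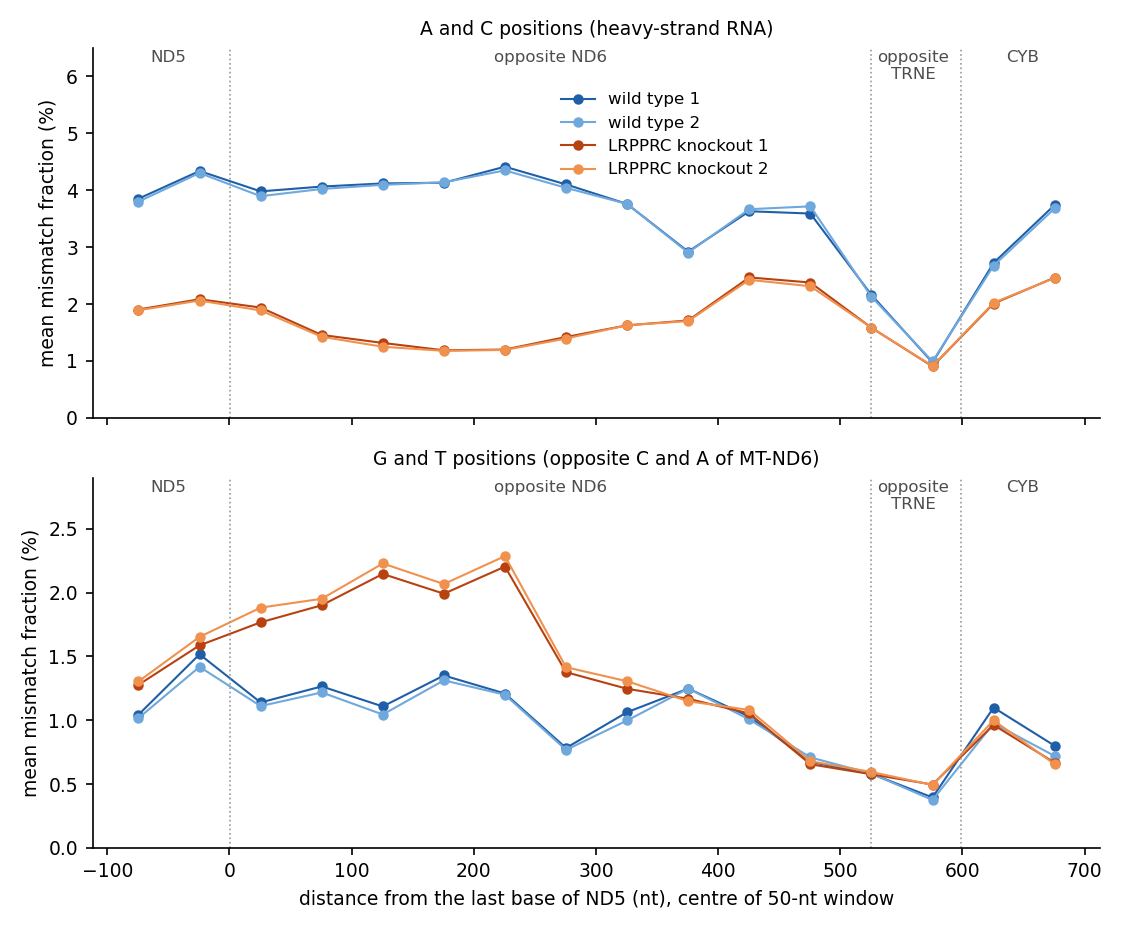
Mean mismatch fraction (%) in windows of 50 nt against distance from the last base of ND5 (nt), at A and C in the upper panel and at G and T in the lower panel, with 1 line per library. The A and C lines of the knockout lie far below those of wild type over the first part of the stretch and approach them toward CYB, and the G and T lines of the knockout rise above those of wild type in the same windows.

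The 3 positions with the largest fall lay within this middle part. C14340 had 7.23% and 7.06% in wild type against 1.10% and 1.03% in the knockout, a change of -2.01 after centring (SE 0.0397, limma adjusted p = 9.28e-05). A14348 had 8.40% and 8.01% against 1.28% and 1.30%, a change of -1.95. C14364 had 6.06% and 6.22% against 1.02% and 0.992%, a change of -1.87. At each of them the knockout values were far below both wild-type values, and without centring the changes were -2.64, -2.58 and -2.50.

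The positions with the highest wild-type fractions differed in how they changed. C14148 had the highest mean, 9.96%, and changed by -0.91 after centring. C14405 had 8.06% and 7.99% in wild type against 2.01% and 2.06% in the knockout, a change of -1.30. C14388 had 7.89% and 7.93% against 1.47% and 1.41%, a change of -1.75. A14348 was also in this group. A14639 stood apart, because its wild-type libraries differed from each other, at 7.66% and 11.8%, with 6.64% and 5.60% in the knockout. Its change after centring was -0.0040 (limma adjusted p = 0.988), and its sign turned when either wild-type replicate 2 or knockout replicate 2 was left out, to 0.31 and 0.12.

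The mismatches at G and T, read as ND6, went the other way. Over 165 positions the mean fraction was 0.979% and 0.954% in the wild-type libraries and 1.37% and 1.42% in the knockout libraries. The groups did not overlap, and the means were 0.967% ± 0.0178 (SD, n = 2) and 1.40% ± 0.0328 (SD, n = 2), a 1.44-fold difference (two-sided exact permutation p = 0.333, again at its limit). At G the fraction was 0.612% and 0.589% against 1.24% and 1.31%, a 2.13-fold difference. At T it was 1.12% and 1.10% against 1.42% and 1.46%, a 1.30-fold difference. The ratio of the A and C level to the G and T level was 3.59 and 3.67 in wild type against 1.18 and 1.12 in the knockout. The ratio was thus close to 1 in both knockout libraries. In ND5 the mean ratio went from 4.07 to 2.14, in CYB from 4.26 to 3.00, and over the whole file from 4.06 to 2.49.

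Of the 159 G and T positions tested, 111 passed after centring, where 56.3% of all 5456 did. Of these, 87 rose (26.6% of all tested) and 24 fell (29.6%). Without centring 107 passed (54.4%), of which 91 rose (29.8%) and 16 fell (24.6%). Both knockout values lay above both wild-type values at 114 of the 165 positions (69.1%, against 37.7% in the file) and below at 27 (37.8% in the file). As a feature the stretch changed by 0.39 at G and T (SE 0.0253, limma adjusted p = 0.00134), where 70.7% of 41 features passed and 39% rose. The part opposite ND6 changed by 0.44, ND5 by 0.19 (limma adjusted p = 0.00821) and CYB by 0.0090 (limma adjusted p = 0.808).

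The 3 positions with the largest rise were all G, each facing a C of ND6. G14409 had 0.548% and 0.459% in wild type against 2.41% and 2.44% in the knockout, a change of 2.01 after centring (SE 0.0677, limma adjusted p = 0.00033). G14422 had 0.559% and 0.542% against 2.34% and 2.50%, a change of 1.90. G14248 had 0.773% and 0.727% against 3.08% and 3.26%, a change of 1.89. The paired C of the light-strand file did not rise with them and was lower in the knockout. Its mean went from 4.68% to 4.22% at G14409, from 5.67% to 4.91% at G14422 and from 5.27% to 4.40% at G14248. The largest falls were smaller. G14738, opposite TRNE, had 1.40% and 1.50% against 0.796% and 0.631%, a change of -0.99. T14529 (-0.70) and T14549 (-0.54) lie opposite ND6.

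**Figure D2:**
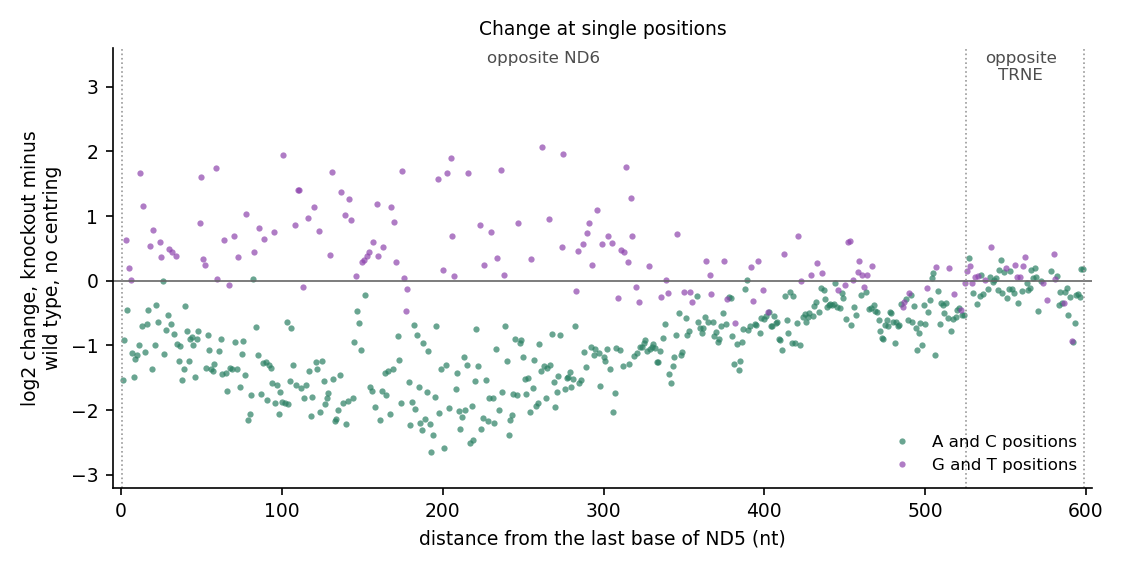
Log2 change, knockout minus wild type and without centring, at each tested position against distance from the last base of ND5 (nt), for A and C and for G and T. The A and C points lie mostly below 0, lowest near C14340, and the G and T points lie mostly above 0 over the same part, with both sets close to 0 toward CYB.

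The 4 windows from 14198 to 14397 had the highest knockout fractions at G and T, and each was among the 15 windows with the lowest A and C change. The window from 14398, which was also among those 15, had a lower knockout fraction at G and T, 1.38% and 1.42%. The window from 14248 had G and T fractions of 1.11% and 1.04% in wild type against 2.15% and 2.23% in the knockout. The window from 14348 had 1.21% and 1.20% against 2.20% and 2.29%. In 4 of the 12 windows, from 14198 to 14397, the knockout mean at G and T exceeded that at A and C, which was so in 0 windows in wild type. From 14498 to 14697 the G and T values of the groups were close. The window from 14598 had 0.674% and 0.709% against 0.655% and 0.679%.

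The light-strand file gives the fractions on ND6 and TRNE themselves over the same stretch. At its C and A positions the mean was 3.06% and 3.04% in wild type against 2.79% and 2.79% in the knockout. Both knockout values were lower, by 0.259 percentage points in the mean, which is far less than the 1.90 points at A and C of the heavy strand. The change was -0.183 points over ND6 alone and -0.685 points over TRNE. The TRNE value includes the A paired with 14733, which had 24.7% and 16.4% in wild type against 7.34% and 6.03% in the knockout. The 9 C positions of TRNE, which leave that base out, changed by -0.247 points. Mismatches at G and T of the light-strand file averaged 0.754% in wild type and 0.640% in the knockout.

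How far the heavy-strand file followed ND6 base by base was measured as the slope of its G and T fractions on the fractions of the paired C and A in the light-strand file. A slope of 100% would mean that a G or T shows the whole fraction of its partner. Over the 165 positions the slope was 4.41% and 6.89% in the wild-type libraries and 39.3% and 43.7% in the knockout libraries. The groups did not overlap, with means of 5.65% ± 1.76 (SD, n = 2) and 41.5% ± 3.11 (SD, n = 2) and an exact permutation p of 0.333, the smallest possible. Spearman's rho over the same positions, which share their libraries, was 0.318 and 0.333 in wild type against 0.702 and 0.709 in the knockout. A single position weighed on the wild-type slope. The A of TRNE that pairs with 14733 had 24.7% and 16.4% in the wild-type and 7.34% and 6.03% in the knockout light-strand files. Without it the mean slopes were 11.3% and 45.3%.

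**Figure D3:**
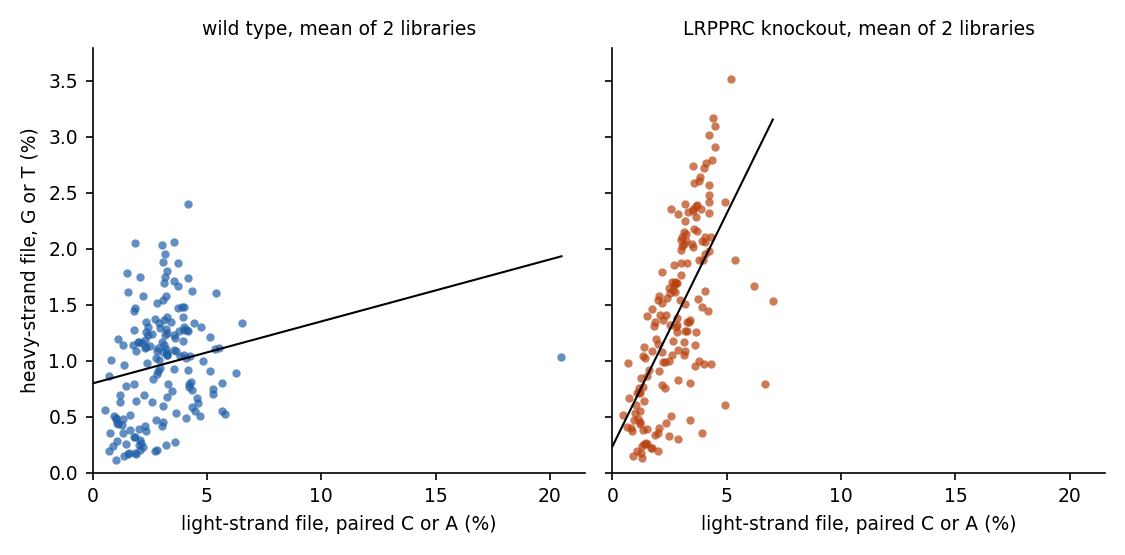
Fraction (%) at each G or T of the heavy-strand file against the fraction (%) at the paired C or A of the light-strand file, as means of 2 libraries, in wild type on the left and in the knockout on the right. The knockout points lie along a rising line, with a mean slope of 41.5% over all 165 positions, and the wild-type points stay low over most of the horizontal range.

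The slope followed the same course along the stretch as the levels. In the 100 nt from 14248 it was -8.59% and -7.29% in wild type against 63.1% and 64.4% in the knockout, over 32 positions. Pearson's r in this window was 0.939 and 0.962 in the knockout, and -0.273 and -0.241 in wild type. In the 100 nt from 14348 the slope was 8.80% and 9.72% against 57.2% and 58.7%. From 14448 on it was smaller in the knockout, at 17.8% and 20.6%, then 19.3% and 19.6%, and from 14648, mostly opposite TRNE, 11.5% and 12.9%. In each of the 6 windows of 100 nt both knockout slopes lay above both wild-type slopes.

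**Figure D4:**
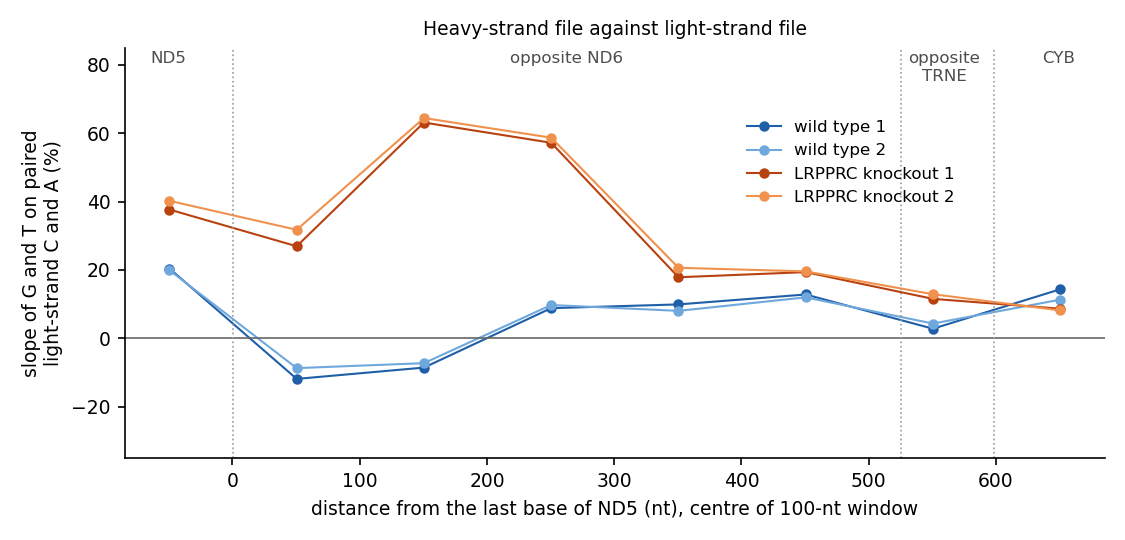
Slope (%) of G and T in the heavy-strand file on the paired C and A of the light-strand file, in windows of 100 nt against distance from the last base of ND5 (nt), with 1 line per library and a horizontal line at 0. The knockout libraries peak at 63.1% and 64.4% in the window from 14248, where the wild-type libraries lie below 0.

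The neighbouring mRNAs moved less, or the other way. In ND5 the slope was 17.1% and 17.1% in wild type against 26.2% and 26.6% in the knockout, and in CYB 28.8% and 31.3% against 16.6% and 16.4%. Within each library the slope of the stretch was lower than that of ND5 in wild type, by -12.7 and -10.2 points, and higher in the knockout, by 13.2 and 17.2 points. Against CYB the differences were -24.3 and -24.4 in wild type against 22.8 and 27.3 in the knockout. For both comparisons the exact permutation p was 0.333. The last 100 nt of ND5 had slopes of 20.4% and 19.9% in wild type against 37.7% and 40.2% in the knockout.

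The reverse slopes were far smaller than the forward slopes in the knockout, and the gap was narrower in wild type. The slope of G and T in the light-strand file on the paired C and A of the heavy-strand file was -0.850% and -1.34% in wild type against -1.64% and -1.04% in the knockout, and the groups overlapped. The bases differed when taken apart, and no group mean by base was below 0, unlike the pooled slopes. At C of the heavy strand and its partner G the wild-type libraries had a reverse slope of 3.97% ± 0.357 and the knockout libraries one of 0.0361% ± 0.158 (SD, n = 2). The wild-type libraries thus stood above the knockout there. At A and its partner T the values were 2.07% ± 0.933 and 2.97% ± 0.869. With deletions included the means were 0.00187% and 1.26%. Across the A and C positions of the stretch, Pearson's r between the heavy-strand fraction and that of the paired T and G in the light-strand file was -0.0426 and -0.0676 in wild type. In both neighbouring mRNAs it was higher in wild type, at 0.50 and 0.485 in ND5 and at 0.819 and 0.808 in CYB. In the knockout, r was -0.0355 and -0.0229 in the stretch, 0.190 and 0.204 in ND5, and 0.139 and 0.154 in CYB. Whether the slopes of the stretch, ND5 and CYB, or any level divided by 1 minus them, measure light-strand RNA alone was not tested.

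The A and C level was also computed with the slope taken into account. When the A and C level was divided by 1 minus the slope in each library, it became 3.72% ± 0.0610 in wild type and 2.75% ± 0.114 in the knockout (SD, n = 2), a difference of -0.970 points in place of -1.90. When the paired light-strand fraction was also subtracted, window by window of 100 nt, the levels were 3.69% and 2.12%, a difference of -1.57 points. The latter computation was added after the values had been seen. The knockout stayed lower by both, and the size depended on the computation.

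Opposite TRNE the heavy-strand RNA had low fractions in both groups. Its 44 A and C positions had a mean of 0.719% and 0.745% in wild type against 0.640% and 0.642% in the knockout, against 3.84%, 3.83%, 1.72% and 1.69% for the 385 positions opposite ND6. The knockout values lay below those of wild type, but at single positions both knockout values were lower at 25 of the 44 (83.7% in the file), higher at 9 (7.63%) and overlapped at 10. After centring, 37 of the 44 rose (44.9% of all tested positions) and 1 fell (26.6%), and as a feature the change was 0.51 (SE 0.0175, limma adjusted p = 0.000608). Without centring the change was -0.12 (limma adjusted p = 0.00681), so its direction depended on the scaling. These A and C fractions were near the mean at G and T over the whole file, 0.743% in wild type and 0.789% in the knockout. Whether fractions this low could fall with the median of the file was not tested. At G and T opposite TRNE the fractions were 0.365% and 0.352% against 0.353% and 0.351%, which overlapped.

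The 3 A and C positions that rose most after centring all lay opposite TRNE, at such low fractions. A14674 had 0.645% and 0.680% in wild type against 0.909% and 0.834% in the knockout, a change of 0.98 after centring and 0.35 without it. C14694 had 0.680% and 0.695% against 0.863% and 0.903%, with changes of 0.95 and 0.32. C14715 had 0.573% and 0.557% against 0.639% and 0.686%, with changes of 0.83 and 0.20, the latter at a limma adjusted p of 0.121. Both knockout values were above both wild-type values at all of them.

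The other heavy-strand stretches opposite light-strand tRNAs had higher A and C fractions. TRNE was the lowest of 8 at 0.732% in wild type and 0.641% in the knockout. TRNP, for proline, was next at 1.02% and 0.776%, and TRNS1, for serine, was highest in wild type at 2.60%, with 1.62% in the knockout. The remaining 5 had 1.58% to 2.43% in wild type and 1.12% to 1.89% in the knockout. The predicted unpaired probability of the heavy-strand bases opposite TRNE was 0.730, the highest of the 8, which ranged down to 0.534.

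The order of positions within the stretch changed with genotype. Spearman's rho of the A and C fractions over 433 positions was 0.994 between the wild-type libraries, 0.988 between the knockout libraries and 0.519 to 0.532 between a library of each group. In ND5 the rho between groups was 0.756 to 0.765 and in CYB 0.845 to 0.848. It was lowest in the 100 nt from 14248, at 0.293 to 0.326, and highest in the 100 nt from 14648, at 0.949 to 0.961. At G and T it was 0.586 to 0.609 over the stretch and -0.159 to -0.126 in the 100 nt from 14248. These are descriptions over positions that share their libraries.

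Folding of the heavy strand by sequence alone with RNAplfold predicted little pairing in this A- and C-rich stretch. The mean unpaired probability of its A and C was 0.840, against 0.768 in ND5 and 0.735 in CYB. Spearman's rho between this probability and the A and C fraction was weak, at 0.104 and 0.0955 in wild type against -0.0158 and -0.0011 in the knockout. For C alone it was 0.270 and 0.253 in wild type against -0.0594 and -0.0442 in the knockout. Opposite ND6 alone, rho over A and C was 0.0264 and 0.0166 in wild type against -0.105 and -0.0856 in the knockout. In ND5 it was 0.217 and 0.218 in wild type against 0.164 and 0.169 in the knockout. In CYB it was 0.380 and 0.381 in wild type against 0.366 and 0.366 in the knockout. The G and T fractions, set against the predicted unpaired probability of the paired light-strand bases, gave 0.366 and 0.363 in wild type against 0.207 and 0.190 in the knockout. That order turned at T alone, where the wild-type mean was 0.181 and the knockout mean 0.286. At G alone rho was near 0 in both groups.

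How unevenly the fractions were spread over the A and C positions differed little. The Gini index, which is 0 when all positions are equal, had means of 0.277 ± 0.00232 in wild type and 0.260 ± 0.000802 in the knockout (SD, n = 2). For C alone it was higher in the knockout, at 0.265 against 0.219. Deletions were taken as the difference between the deposited fraction with deletions and that without. At A and C they were 0.179% and 0.172% in wild type against 0.0695% and 0.0676% in the knockout, and at G and T they were 0.111% and 0.106% against 0.109% and 0.113%. Deletions at A and C thus separated the groups, and those at G and T did not.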

How the data were processed

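DMS probing of isolated mitochondria was read from 8 deposited files, 1 for each strand of 4 libraries. Per the file headers, the deposited values are a mismatch fraction for every position, a fraction with deletions, and the base. Cutadapt and Bowtie2 were used, per the submitters' processing notes. Their settings and the genome build are not given in the sources used here. Positions keep the files' numbering. Lowered by 1 over all but its first part, the GRCh38 gene table gave an open reading frame for 13 of 13 protein genes, and without that shift for 0.

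Means are over positions at a mean fraction of at most 0.3. Tests used limma 3.58.1 in R 4.3.3 on log2(fraction + 0.001), at a mean of 0.002 or more, with each library's median subtracted, Benjamini-Hochberg adjustment over the whole table and a threshold of 0.05. Single values had exact permutation tests over all assignments of libraries to groups. Spearman's rho was computed with scipy 1.17.1. On simulated data for A and C positions, 86 of 100 changes of 1 (log2), 63 of 100 of 0.5, and 9 of 9710 unchanged positions were called. RNAplfold 2.7.2 used a window of 240 and a span of 160 nt. Sequences came from the base column. Named positions were the 3 with the largest rise and fall in each base class among those that passed after centring, the 5 with the highest wild-type A or C fraction, and the borders. The stretch, the positions and the comparisons were chosen with earlier results of these data known. Alternatives covered each left-out library, deletions, single bases, limits, pseudocounts, scaling, a replicate block, opposite-strand reads and folding windows.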

Additional observations from a re-analysis of the deposited data

How the results depend on the processing

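The difference at A and C was -1.92 to -1.89 points with each library left out, and that at G and T 0.407 to 0.453. The difference of their ratio was -1.69 to -1.62 on the log2 scale, and that of the slope 33.7 to 38.1. The change of the stretch as a feature was -0.38 to -0.36 at A and C and 0.37 to 0.40 at G and T. Each kept its direction under every alternative reported for it, and its side of the threshold where a limma test was made. For the feature change at A and C, division by 1 minus the slope is not among these alternatives. The change against ND5 (-0.38 to -0.37 over left-out libraries) and CYB (-0.54 to -0.53) turned to 0.12 and 0.37 when divided by 1 minus the slope, and to no other sign. The labels do not say whether same-numbered libraries of the 2 groups were prepared together. Their deviations had a correlation of 0.000704 over 9910 positions and -0.0657 over the 431 of the stretch. Such a correlation cannot settle the pairing, because a shared preparation need not leave a common pattern over positions. With the numbers as a replicate block, the feature change at A and C was again -0.37, with 341 positions called in place of 345. The small reverse slope (difference -0.246) became 1.26 with deletions and 0.894 at positions paired with T alone, kept its sign at -3.93 at positions paired with G alone, and was -0.545 to 0.0533 with a library left out, above 0 only without knockout replicate 1. The Gini difference of -0.0166 became 0.0459 for C alone (-0.0182 to -0.0149 with a library left out).

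Of the 345 A and C calls (301 to 337 with a library left out), fits on A alone gave 158 (39 higher, 119 lower) and on C alone 188 (43 higher, 145 lower). The 99 higher calls (67 to 92) were 54 at a mean of at least 0.01, 64 after quantile normalization and 4 without centring, where lower calls went from 246 (232 to 245) to 383. Of 111 G and T calls (92 to 100), 87 were higher (76 to 83) and 24 lower. A separate fit on G alone gave 29, with 27 higher and 2 lower. Lower calls were 12 in a fit on T alone, 15 at a mean of at least 0.01 and 14 to 18 with a library left out, 14 without wild-type replicate 2. The 4 windows higher after centring (3 to 4) were 0 without it.

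Spearman's rho with unpaired probability at A and C (mean 0.0997 in wild type, 0.0955 to 0.104) was -0.133 for A, 0.262 for C and 0.135 with a folding window of 120 nt. In the knockout (-0.00843, from -0.0158 to -0.00107) it was 0.0226, -0.0518 and 0.0306. At G and T in wild type (0.365, from 0.363 to 0.366) it was 0.339 with deletions, -0.00456 for G, 0.181 for T and 0.337 with the smaller window. In the knockout (0.199, from 0.190 to 0.207) it was -0.0217 for G, 0.286 for T and 0.164, so that at T alone the knockout was above wild type. Among single positions A14639 turned to 0.0125 at a pseudocount of 0.0001 (-0.32 to 0.31 with a library left out). T14672 turned to 0.0012 after quantile normalization, T14673 to -0.0618 when centred on the highest 5%, and C14741 and A14742 to -0.23 and -0.20 without centring. The cause of these changes was not tested.

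The files give no depth, so counting error cannot be separated from the spread of 2 libraries, and 2 against 2 cannot pass an exact test. Without an untreated library, the part of each fraction that arises without DMS was not tested.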
